A study of Mus musculus with 8 samples.

Results

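Polyamines are small, positively charged molecules that every cell needs for growth, and the prostate is known for making large amounts of them and secreting spermine into seminal fluid. The genes described here code for the enzymes that make and break down polyamines and for the proteins that control the first of these enzymes. They were chosen by name, as the rows of the deposited count table whose Ensembl identifier carries the symbol Odc1, Amd1, Srm, Sms, Oaz1, Oaz2, Azin1, Sat1, Smox or Paox in the GENCODE M21 annotation. These are 10 of the 54532 genes in the table, and all 10 had enough reads to be tested. Expression was measured by bulk RNA-seq of frozen prostates from 8 male NOD/ShiLtJ mice. NOD (non-obese diabetic) mice develop spontaneous autoimmune inflammation, and all 8 shared this background. The 4 control mice, named by animal number as control 1, 3, 65 and 69, received the PBS vehicle. The 4 etanercept mice, named etanercept 17, 19, 50 and 52, received etanercept, a TNF antagonist made from the extracellular part of a TNF receptor, at 4 mg/kg. Both groups had 2 injections per week for 5 weeks, began treatment at 25 weeks of age and were harvested at 30 weeks. Diabetic and non-diabetic mice were pooled in the study, the labels do not give the status of each mouse, and they do not say which prostate lobes each sample held.

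Polyamine synthesis starts from ornithine, which ornithine decarboxylase turns into putrescine. S-adenosylmethionine decarboxylase prepares the aminopropyl groups that spermidine synthase and then spermine synthase add to make spermidine and spermine. Antizymes, whose translation rises with polyamine levels through a ribosomal frameshift, bind ornithine decarboxylase and send it to the proteasome, and antizyme inhibitors bind the antizymes in its place. Breakdown runs through acetylation of spermidine and spermine followed by oxidation, or through direct oxidation of spermine. In the prostate, ornithine decarboxylase is a classic androgen-responsive enzyme of the secretory epithelium.

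Total counts per mouse lay between 13760669 and 25178942, and the lowest count of any of the 10 genes in any mouse was 81, for Paox in etanercept 52. The secretory epithelium of the samples differed widely between mice of both groups. The gene Sbp, which codes for spermine-binding protein, a secretory protein of the ventral prostate, held 0.157% to 20.7% of all counts. Control 69, etanercept 19 and etanercept 50 had the highest shares (20.7%, 16.5% and 17.3%), and control 1 and etanercept 17 the lowest (0.170% and 0.157%). Etanercept 17 also carried 9.41% of its counts in seminal vesicle secretory genes, against at most 0.366% in the other mice. Probasin (Pbsn) and the luminal keratins Krt8 and Krt18 were present in every mouse, while Trpm8, another prostate marker, was at 0 counts in every mouse. In whole tissue, fewer cells of a type and less RNA per cell cannot be told apart.

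Compared per length, as FPKM (here CPM, meaning counts scaled to library size with TMM factors, divided by kb of exon), the 10 genes covered a wide range of levels. Oaz1, coding for the main antizyme, had the highest mean level at 158 ± 24.3 FPKM (SD, n = 8 mice), followed by Amd1, coding for S-adenosylmethionine decarboxylase, at 120 ± 74.0 FPKM. A middle group held Srm, coding for spermidine synthase, at 55.6 ± 20.8 FPKM, Sat1, coding for the spermidine/spermine acetyltransferase, at 51.8 ± 9.82 FPKM, Oaz2, coding for a second antizyme, at 49.4 ± 11.1 FPKM, and Odc1, coding for ornithine decarboxylase, at 32.9 ± 20.8 FPKM. Azin1, coding for an antizyme inhibitor, was at 16.0 ± 3.19 FPKM and Sms, coding for spermine synthase, at 11.3 ± 4.00 FPKM. The oxidase genes were lowest, with Smox, coding for spermine oxidase, at 3.63 ± 0.717 FPKM and Paox, coding for the peroxisomal oxidase of acetylated polyamines, at 2.55 ± 0.914 FPKM. Of all neighbours in this order, Sms and Smox were the only pair whose ranges of mean ± SD did not overlap.

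**Figure D1:**
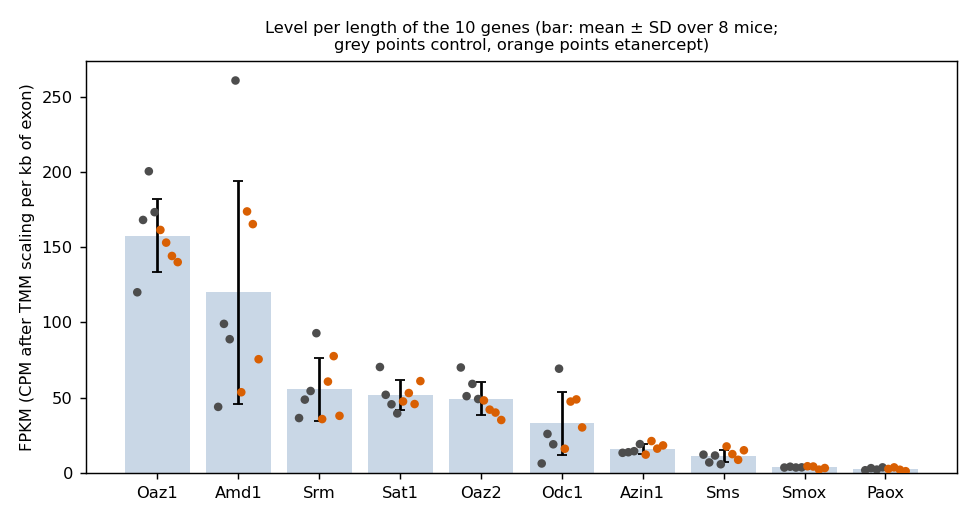
Level of each of the 10 genes in FPKM on a linear axis; bars are means and whiskers SDs over 8 mice, grey points control mice and orange points etanercept mice. Oaz1 has the highest mean, 158 FPKM, Paox the lowest, 2.55 FPKM, and the SD of Amd1, 74.0 FPKM, is the largest of the 10.

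Odc1 (ENSMUSG00000011179) lies on the plus strand at chr12:17544794-17551505 of GRCm38, and Amd1 (ENSMUSG00000075232) on the minus strand at chr10:40287458-40302186. Srm (ENSMUSG00000006442) lies on the plus strand at chr4:148591503-148594993 and Sms (ENSMUSG00000071708) on the minus strand at chrX:157443855-157492287. The sequences just upstream of 3 of these genes are shown for their relation to the secretory gene Sbp from mouse to mouse, described further on, in which Odc1 and Amd1 rose with Sbp and Sms had a slope of the opposite sign that did not pass the test. Mat2a, the gene of the enzyme that makes S-adenosylmethionine, is added as a non-member that rose with Sbp as well. The windows are RefSeq sequence of GRCm38.p6, cut to the bases before the annotated gene start, and are printed in the direction of transcription. They span chr12:17544623-17544793 (plus strand, 171 bases) for Odc1, chr10:40302189-40302438 (minus strand, 250 bases) for Amd1, chrX:157492288-157492537 (minus strand, 250 bases) for Sms and chr6:72439559-72439806 (minus strand, 248 bases) for Mat2a. Capitals mark matches, on either strand, to the GC box GGGCGG, the E-box CACGTG, the TATA letters TATAA and the androgen receptor half-site letters AGAACA.
Odc1: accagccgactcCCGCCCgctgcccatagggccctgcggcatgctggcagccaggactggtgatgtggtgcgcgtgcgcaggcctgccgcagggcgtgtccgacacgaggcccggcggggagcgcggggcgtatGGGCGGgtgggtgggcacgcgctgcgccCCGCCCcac
Amd1: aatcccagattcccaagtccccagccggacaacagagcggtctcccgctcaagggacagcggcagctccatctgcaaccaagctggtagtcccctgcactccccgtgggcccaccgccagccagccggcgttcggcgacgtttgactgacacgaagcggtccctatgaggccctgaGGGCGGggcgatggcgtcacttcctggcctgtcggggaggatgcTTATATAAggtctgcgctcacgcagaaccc
Sms: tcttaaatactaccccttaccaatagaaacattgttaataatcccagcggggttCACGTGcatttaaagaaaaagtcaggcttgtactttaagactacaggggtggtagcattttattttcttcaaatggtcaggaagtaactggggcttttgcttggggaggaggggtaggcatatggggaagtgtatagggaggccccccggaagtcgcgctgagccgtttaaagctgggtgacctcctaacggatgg
Mat2a: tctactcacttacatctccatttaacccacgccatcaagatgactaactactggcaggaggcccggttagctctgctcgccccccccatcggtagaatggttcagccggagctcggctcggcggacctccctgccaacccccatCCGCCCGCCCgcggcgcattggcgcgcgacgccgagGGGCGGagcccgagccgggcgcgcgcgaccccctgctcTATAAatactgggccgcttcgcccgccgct
The Odc1 window is rich in G and C (77.2%) and holds 3 GC boxes. The Amd1 window, at 64.4% G and C, holds 1 GC box and 2 overlapping TATA matches, 1 on each strand. The Mat2a window, at 67.3% G and C, holds 3 GC boxes, of which a pair overlap, and 1 TATA match. The Sms window has the lowest G and C share, 47.2%, and holds 1 E-box, the letters bound by MYC with MAX, and none of the other 3 motifs. The half-site letters were found in none of these 4 windows, and once in that of Sat1, which is not printed. Among 32851 RefSeq windows of 250 bases, 32.7% held a GC box, 6.02% the E-box, 22.8% the TATA letters and 16.1% the half-site letters, so these matches are a description of the windows and not evidence of binding.

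The synthesis genes Odc1 and Amd1 varied most between mice. Levels per mouse are given as CPM after TMM scaling, which serves to compare mice for 1 gene but not genes with each other. Odc1 was at 21.3, 88.2, 64.8 and 236 CPM in control 1, 3, 65 and 69, and at 54.7, 161, 166 and 103 CPM in etanercept 17, 19, 50 and 52. Control 69 was highest and control 1 lowest, 11.1-fold apart, and the etanercept mice lay between them. Amd1 was at 155, 351, 315 and 924 CPM in the controls and at 190, 615, 586 and 268 CPM in the etanercept mice, in the same order of mice as named for Odc1. Again control 69 was highest and control 1 lowest, 5.94-fold apart, and etanercept 19 and 50 lay above the other etanercept mice.

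Srm and Sms code for consecutive enzymes and showed different orders of mice. Srm was at 58.3, 77.9, 87.1 and 148 CPM in control 1, 3, 65 and 69, and at 57.2, 97.1, 124 and 60.7 CPM in etanercept 17, 19, 50 and 52. As for Amd1, control 69 was highest, and the groups overlapped. Sms was at 73.0, 41.8, 69.5 and 34.6 CPM in the controls and at 106, 75.1, 52.3 and 90.4 CPM in the etanercept mice. Here control 69 was lowest and etanercept 17 highest, and etanercept 50 was the only etanercept mouse below control 1. The ratio of Sms to Srm per length therefore ranged from 0.0620 in control 69 to 0.492 in etanercept 17, with 0.333 in control 1, 0.143 in control 3, 0.212 in control 65, 0.206 in etanercept 19, 0.112 in etanercept 50 and 0.397 in etanercept 52. Control 69, etanercept 50 and control 3 had the lowest ratios, and the groups overlapped.

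The regulators of ornithine decarboxylase varied less. Oaz1 (ENSMUSG00000035242, chr10:80826656-80829290, plus strand) was at 307, 430, 513 and 443 CPM in control 1, 3, 65 and 69 and at 413, 391, 369 and 358 CPM in etanercept 17, 19, 50 and 52. Control 1 was the lowest mouse, and the etanercept mice lay close together within the range of the controls. Oaz2 (ENSMUSG00000040652, chr9:65668001-65690300, plus strand) was at 209, 152, 177 and 147 CPM in the controls and at 144, 126, 120 and 105 CPM in the etanercept mice. Every etanercept mouse was below every control mouse, although etanercept 17 and control 69 were close. Azin1 (ENSMUSG00000037458, chr15:38487427-38519266, minus strand) was at 83.5, 85.9, 90.3 and 120 CPM in the controls and at 76.0, 132, 101 and 114 CPM in the etanercept mice. Its groups overlapped, with etanercept 19 highest and etanercept 17 lowest. The ratio of Odc1 to Oaz1 per length ranged from 0.0522 in control 1 to 0.400 in control 69, and from 0.0994 in etanercept 17 to 0.339 in etanercept 50. This is a ratio of transcripts, and antizyme protein, which depends on the frameshift, was not measured.

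The breakdown genes were steady or low. Sat1 (ENSMUSG00000025283, chrX:155213132-155216449, minus strand), whose product acetylates spermidine and spermine, was at 195, 144, 126 and 110 CPM in control 1, 3, 65 and 69 and at 132, 147, 127 and 169 CPM in etanercept 17, 19, 50 and 52. Control 1 was highest and control 69 lowest, the reverse of Odc1 and Amd1 in these mice. Smox (ENSMUSG00000027333, chr2:131491496-131525922, plus strand) lay between 13.9 and 16.0 CPM in the controls and between 8.41, in etanercept 50, and 17.3 CPM, in etanercept 17. Paox (ENSMUSG00000025464, chr7:140115799-140137224, plus strand) lay between 8.70 and 18.1 CPM in the controls and between 5.60 CPM, in etanercept 52, and about the highest control level, in etanercept 19. That lowest level rests on the 81 counts of etanercept 52. Some of these genes have close copies, among which the counting could split reads. Amd2, a copy of Amd1, had 0.528% of the counts of Amd1, and the pseudogene Oaz1-ps 0.651% of those of Oaz1. Of the exon length, 5.72% of Azin1 and 2.89% of Paox overlap a gene on the other strand, Gm49077 and Echs1.

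**Figure D2:**
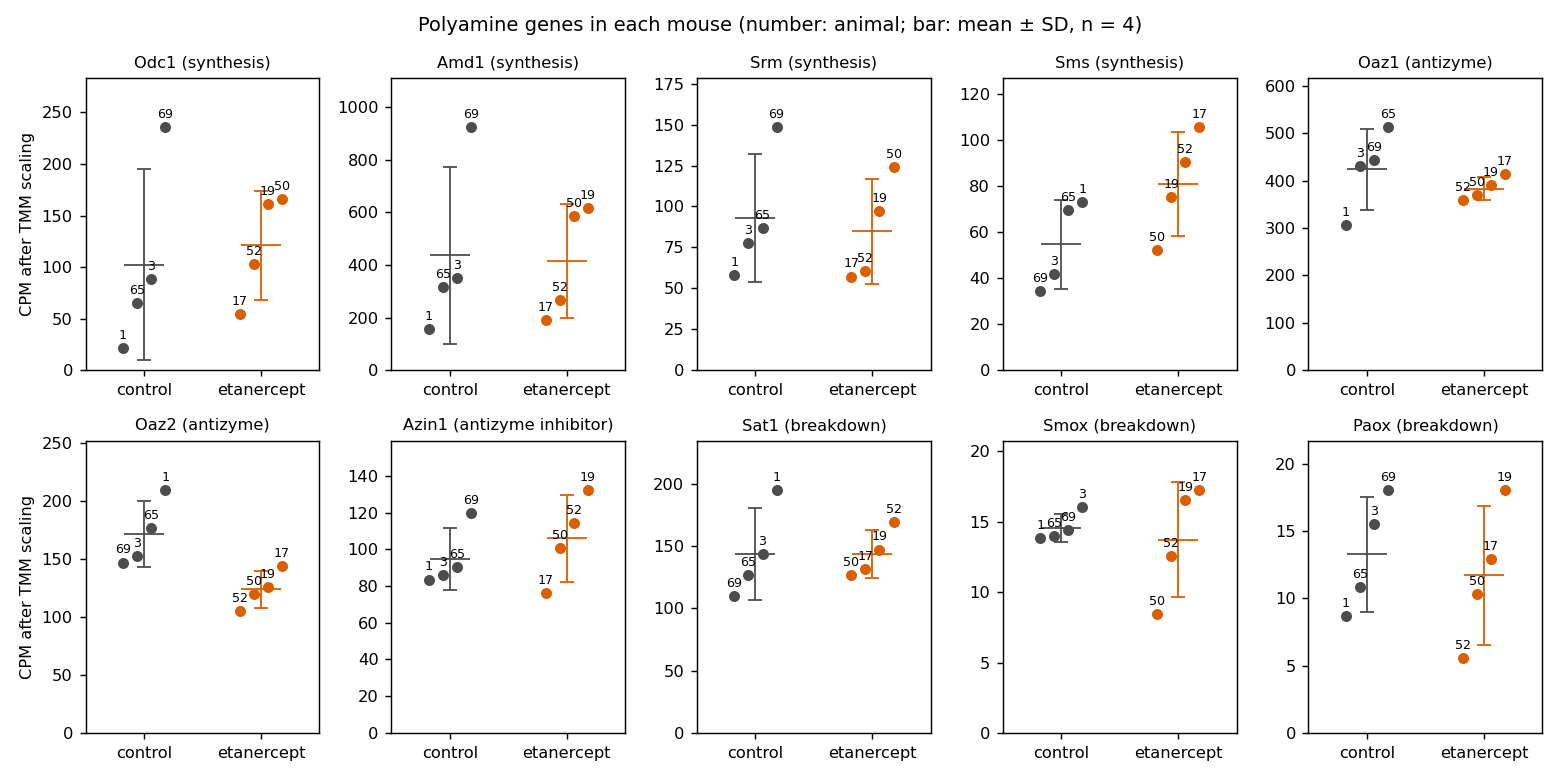
CPM after TMM scaling of the 10 genes in each mouse, 1 panel per gene with its own linear axis from 0; points carry the animal number, grey for control and orange for etanercept, and bars are mean ± SD (n = 4). The groups overlap for every gene except Oaz2, where the etanercept mice (105 to 144 CPM) lie below the controls (147 to 209 CPM).

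Within-group spread set Odc1 and Amd1 apart from the other 8 genes. The SD of log2 CPM within groups was 1.12 for Odc1, larger than that of 95.1% of the 15472 tested genes, and 0.95 for Amd1, larger than that of 91.7%. Paox (0.55), Srm (0.55) and Sms (0.48) were near the middle of all tested genes, with 64.5%, 63.6% and 55.3% of genes below them. Smox (0.32), Azin1 (0.29), Sat1 (0.28), Oaz1 (0.23) and Oaz2 (0.21) were among the steadier genes, with 30.9%, 26.1%, 24.4%, 15.1% and 11.7% below them.

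The comparison of etanercept with control mice asks whether blocking TNF was accompanied by another level of these transcripts. None of the 10 genes passed an adjusted p of 0.05 when tested in edgeR (quasi-likelihood, Benjamini-Hochberg over all 15472 tested genes). The background was the same, since 0 of the 15472 genes passed (0%). Of the 10 genes, 1 (Oaz2, lower) had an unadjusted p under the same value, against 6.62% of all tested genes, or 1024 genes (561 lower, 3.63%). In DESeq2, 0 of the 10 genes and 21 of 18664 genes (0.113%) passed an adjusted p of 0.05. The median log2 fold change, etanercept minus control, was -0.080 over the 10 genes and -0.0099 over all tested genes.

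Oaz2 was at 171 ± 28.5 CPM in controls and 124 ± 16.1 CPM in etanercept mice (SD, 4 mice in each group). On the log2 scale the difference was -0.47 (SE 0.17, 95% interval -0.86 to -0.084). Its unadjusted p was 0.0219 and its adjusted p 0.739 in edgeR, and 0.0139 and 0.491 in DESeq2, and over 21 alternatives the adjusted p lay between 0.347 and 0.999. Without etanercept 50 or etanercept 52 the unadjusted p was 0.0519 or 0.0526, and without control 69, etanercept 19 and etanercept 50 together it was 0.0677. Groups that do not overlap were found for this gene alone among the 10, and for 4.94% of all tested genes (765, of which 392 lower in etanercept, 2.53%). With upper-quartile factors, or library size alone, the groups of Oaz2 overlapped as well. In edgeR no marker gene of another cell type passed the adjusted threshold, but several had a low unadjusted p in the same comparison. In DESeq2 the adipocyte marker Fabp4 passed, with a log2 fold change of -2.46 and an adjusted p of 0.0383. The summed level of 6 adipocyte markers was 51.1 to 696 CPM in controls and 20.2 to 39.4 CPM in etanercept mice, with 4 of its 5 tested genes lower by unadjusted p and Lep, a defining marker, below 1 CPM on average in both groups. The 7 smooth muscle markers summed to 3432 to 7148 CPM in controls and 6537 to 13957 CPM in etanercept mice, with 4 of 7 higher at that threshold. The 7 macrophage markers summed to 310 to 956 and 243 to 335 CPM, with 3 of 7 lower, and the 6 T cell markers to 48.3 to 132 and 38.1 to 59.1 CPM, with 3 of 6 lower. By the same threshold, 2 of 4 basal epithelial markers (163 to 354 and 119 to 219 CPM), 2 of 6 tested skeletal muscle markers (70.3 to 2005 and 697 to 1322 CPM), 1 of 5 B cell markers (320 to 3856 and 212 to 841 CPM) and 1 of 6 proliferation genes were lower, and 0 of 7 fibroblast and 0 of 5 endothelial markers. The skeletal muscle sum of 2005 CPM was that of control 3 alone. Control 1, 65 and 69 (70.3, 201 and 524 CPM) lay below every etanercept mouse, so this list as a whole was not lower. Their part in the level of Oaz2 was not tested.

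Sms was at 54.7 ± 19.3 CPM in controls and 80.9 ± 22.8 CPM in etanercept mice. Its log2 fold change was 0.56 (SE 0.29, 95% interval -0.096 to 1.22, unadjusted p = 0.0858, adjusted p = 0.782 in edgeR). The interval includes 0. Without control 1 or etanercept 50 the unadjusted p of Sms in edgeR was 0.0388 or 0.0345. Without any other single mouse it lay between 0.0610 (control 65) and 0.217 (etanercept 17). Over these fits the log2 fold change of Sms lay between 0.40 (without control 69) and 0.72 (without etanercept 50). The intervals of Odc1 and Amd1 were wide. Odc1 was at 103 ± 93.1 and 121 ± 53.0 CPM, a log2 fold change of 0.24 (SE 0.62, 95% interval -1.14 to 1.63), and Amd1 at 436 ± 336 and 415 ± 217 CPM, a log2 fold change of -0.073 (SE 0.55, interval -1.31 to 1.16). Without control 69, the mouse with the highest level of both, the values were 1.07 and 0.60, and without control 1 they were -0.11 and -0.37. With 4 mice per group, changes of 1 log2 unit upward or downward lie inside the intervals of both transcripts.

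The other 6 genes had smaller errors than Odc1 and Amd1, and none of their differences exceeded its SE. Srm was at 92.9 ± 38.9 and 84.8 ± 31.8 CPM (log2 fold change -0.13, SE 0.33), Oaz1 at 423 ± 85.5 and 383 ± 24.4 CPM (-0.14, SE 0.19) and Azin1 at 94.9 ± 16.8 and 106 ± 23.7 CPM (0.16, SE 0.20). Sat1 was at 144 ± 37.0 and 144 ± 19.1 CPM, with an interval of -0.45 to 0.45 on the log2 scale around a value of -0.00062. Smox was at 14.6 ± 1.01 and 13.7 ± 4.08 CPM (-0.088, SE 0.27) and Paox at 13.3 ± 4.28 and 11.7 ± 5.19 CPM (-0.18, SE 0.39).

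**Figure D3:**
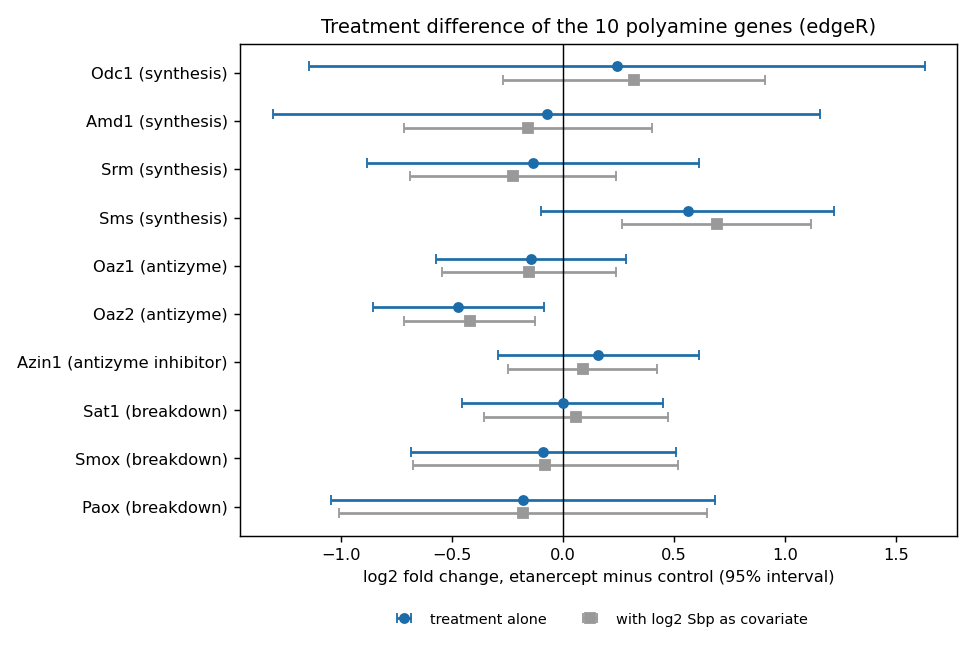
Log2 fold change of the 10 genes, etanercept minus control, with 95% intervals from edgeR; blue circles are the comparison of groups alone and grey squares the fit with log2 Sbp level as a covariate. The interval of Oaz2 lies below 0 in both fits (-0.86 to -0.084 alone), that of Sms lies above 0 with the covariate only (0.27 to 1.12), and those of Odc1 and Amd1 shrink with the covariate.

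The order of mice given above was close to their order by Sbp in both groups. The level of Sbp, whose product binds the end product of the pathway, was 1545, 63774, 15609 and 225361 CPM in control 1, 3, 65 and 69, and 1615, 173791, 179901 and 55855 CPM in etanercept 17, 19, 50 and 52. In each group, the order of mice by Odc1 was the order by Sbp, from control 1 over 65 and 3 to 69, and from etanercept 17 over 52 and 19 to 50. Amd1 had the same order except for etanercept 19 and 50, which changed places, and Sms had the reverse order in both groups. Sbp itself had a treatment log2 fold change of 0.42 (SE 1.41, adjusted p = 0.990 in edgeR), with mice of both groups at its lowest and highest levels.

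A fit with treatment and log2 Sbp level, chosen after these values had been seen, gave the change of each gene per doubling of Sbp within the groups. Of the 10 genes, 2 passed an adjusted p of 0.05, Odc1 and Amd1, both upward, against 4.83% of the 15471 genes tested in this fit (3.56% upward, 1.27% downward). This background depended on single mice, with 747 genes in all 8 mice, 186 without control 69, 1094 without etanercept 17 and 235 without both control 1 and etanercept 17. Odc1 rose by 0.33 log2 units per doubling of Sbp (SE 0.050, 95% interval 0.22 to 0.45, adjusted p = 0.00877 in edgeR). Amd1 rose by 0.28 log2 units per doubling (SE 0.046, interval 0.18 to 0.38, adjusted p = 0.0123 in edgeR). Srm (0.15, SE 0.038) and Sms (-0.13, SE 0.035) came next, with edgeR adjusted p values of 0.0566 and 0.0637 that did not pass. Both lay near the threshold, and both passed with no filter beyond 1 count (0.0289 for Srm and 0.0489 for Sms) and with at least 10 counts in every mouse (0.0413 and 0.0386). Srm also passed with the robust fit (0.0459), with the length trend removed (0.0400) and without control 3 or etanercept 52. Slopes of the other genes were 0.076 for Azin1, 0.071 for Paox, 0.018 for Oaz1, -0.031 for Smox, -0.046 for Sat1 and -0.056 for Oaz2, with adjusted p values between 0.138 and 0.801. Control 1 and etanercept 17, the mice with least Sbp, lay farthest from the median. Without both, the slope of Odc1 was 0.47 (adjusted p = 0.0273 in edgeR) and that of Amd1 0.45 (adjusted p = 0.0611 in edgeR). Over 19 alternatives the adjusted p lay between 0.000445 and 0.0297 for Odc1 and between 0.00129 and 0.0611 for Amd1. Over 8 fits that each left out 1 mouse, the slope of Odc1 lay between 0.28 and 0.46 and that of Amd1 between 0.23 and 0.35.

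**Figure D4:**
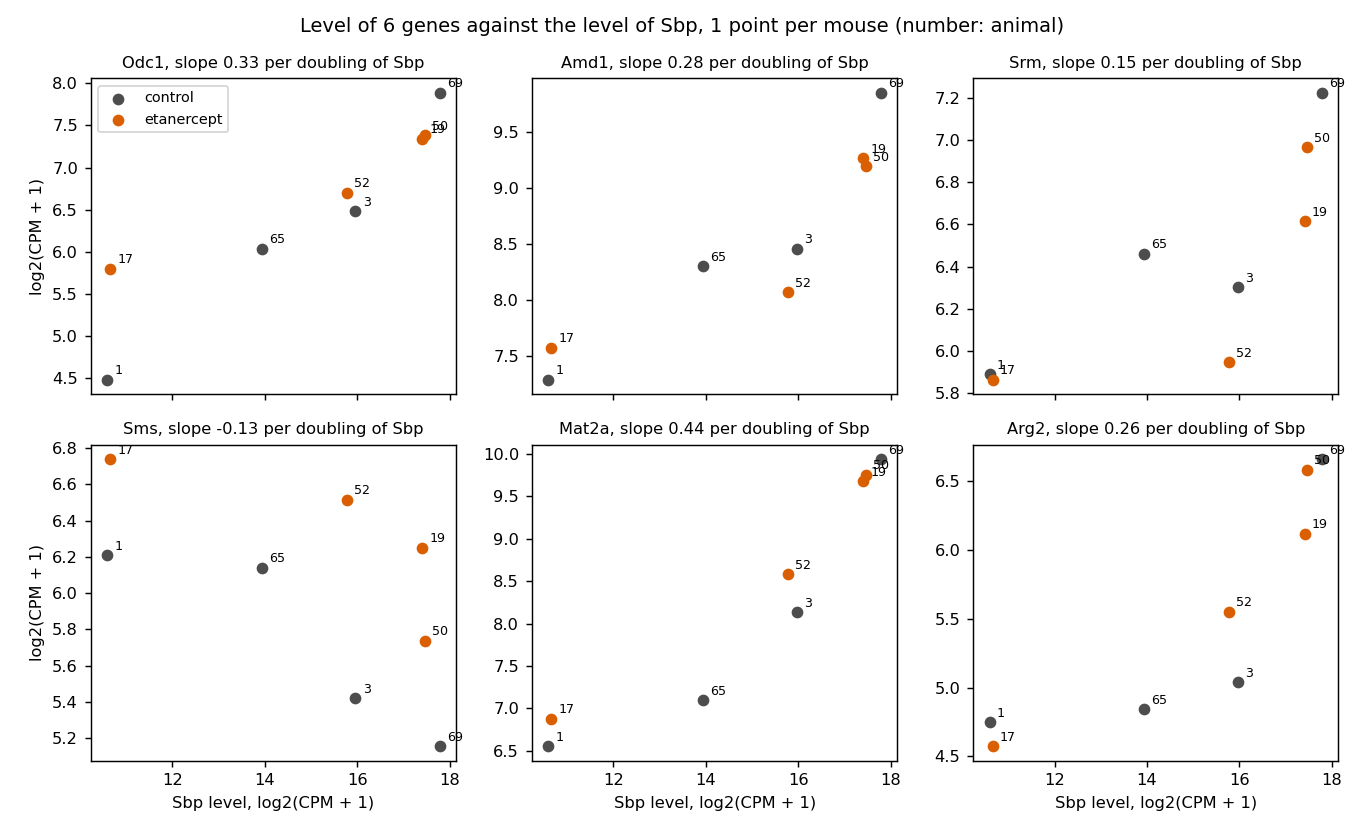
Log2(CPM + 1) of Odc1, Amd1, Srm, Sms, Mat2a and Arg2 against that of Sbp, 1 point per mouse with its animal number, grey for control and orange for etanercept; each panel has its own log2 axis. Odc1 and Amd1 climb with Sbp (slopes 0.33 and 0.28) and Sms descends (-0.13, not past the test).

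With Sbp in the fit, the treatment differences of Odc1 (0.32, SE 0.26) and Amd1 (-0.16, SE 0.25) had smaller errors and still did not pass. Sms had a log2 fold change of 0.69 (SE 0.19, interval 0.27 to 1.12) with an unadjusted p of 0.00487 and an adjusted p of 0.479 in edgeR. Oaz2 had -0.42 (SE 0.13, interval -0.71 to -0.12) with an unadjusted p of 0.0104 and an adjusted p of 0.479 in edgeR. None of the 10 genes passed the adjusted threshold in this fit either. Other secretory genes did not all follow Sbp. Spink1, the gene of a secreted trypsin inhibitor, had a slope of 0.96 (SE 0.072), while that of Pbsn was -0.30 (SE 0.10, adjusted p = 0.116 in edgeR) and Krt8 lay between 275 and 475 CPM in all mice. The part of the other secretory genes in the levels of Odc1 and Amd1 was not tested.

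Genes of precursor supply were examined next. Of 20 such genes, 18 were tested for treatment, 0 passed the adjusted threshold and 1 was under 0.05 by unadjusted p (0 to 6 when 1 mouse was left out, 6 without control 69), beside 6.62% of all tested genes in the fit of all 8 mice. Along Sbp, 3 of the 18 rose and 0 fell at an adjusted p of at most 0.05 (Arg1, Arg2 and Mat2a, of which both arginase genes are named after their values were seen), beside 3.56% upward and 1.27% downward of all genes in this fit. Arg1, the gene of the cytosolic arginase that makes ornithine from arginine, was at 2.92, 13.8, 5.48 and 111 CPM in control 1, 3, 65 and 69, and at 0.581, 148, 157 and 7.95 CPM in etanercept 17, 19, 50 and 52. Control 69, etanercept 19 and etanercept 50 stood far above the other mice, and the slope was 0.88 (SE 0.15, adjusted p = 0.0135 in edgeR). Arg2, the gene of the mitochondrial arginase, was at 25.8, 31.9, 27.7 and 99.8 CPM in the controls and at 22.8, 68.4, 94.7 and 45.9 CPM in the etanercept mice, with a slope of 0.26 (SE 0.051, adjusted p = 0.0243). Mat2a was at 92.8, 280, 136 and 978 CPM in the controls and at 116, 818, 862 and 382 CPM in the etanercept mice, with a slope of 0.44 (SE 0.052, adjusted p = 0.00375). The same 3 mice were highest for all 3 genes. The calls of both arginase genes were lost without control 69 (adjusted p = 0.0917 for Arg1 and 0.125 for Arg2 in edgeR), and that of Arg2 also without etanercept 17, 19 or 50 (0.0574, 0.0654 and 0.0703), while that of Mat2a held in all 8 such fits. Arg1 also missed the threshold with the robust fit (0.0501), and Arg2 without both control 1 and etanercept 17 (0.0544). Oat, the gene of ornithine aminotransferase, had a mean level of 105 FPKM and a slope of -0.077 (adjusted p = 0.146 in edgeR).

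**Figure D5:**
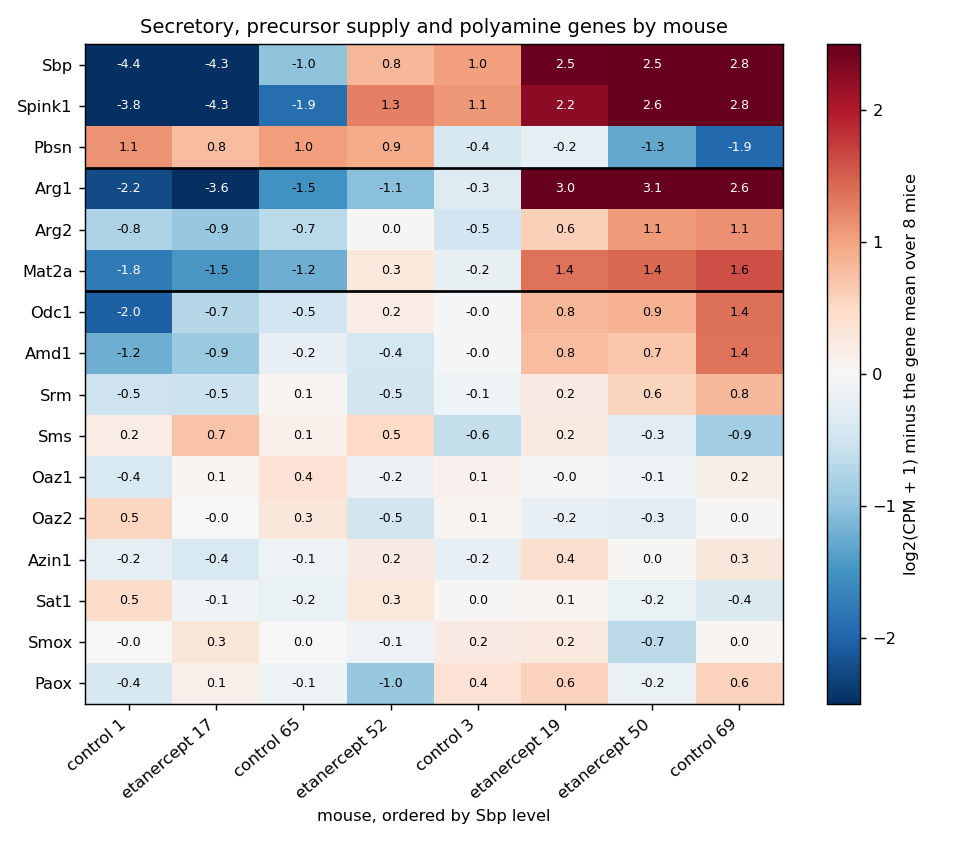
Log2(CPM + 1) of 3 secretory genes, 3 precursor genes and the 10 polyamine genes in each mouse, minus the mean of the gene over the 8 mice; columns are mice ordered by Sbp level, and red is above and blue below the mean. Odc1, Amd1, Mat2a, Arg1 and Arg2 are above their means in control 69, etanercept 19 and etanercept 50, while Oaz1, Sat1 and Smox show no such order.

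For the treatment, Slc7a1, the gene of a cationic amino acid transporter that imports arginine and ornithine, was at 76.1 ± 5.31 CPM in controls and 107 ± 26.3 CPM in etanercept mice (n = 4 each). Every etanercept mouse (83.4 to 140 CPM) was above every control mouse (at most 81.6 CPM), as for 2.41% of all tested genes. Its log2 fold change was 0.50 (SE 0.19, unadjusted p = 0.0245, adjusted p = 0.739 in edgeR). Of 10 transport genes, 8 were tested and 0 passed the adjusted threshold. Atp13a3, the gene of a transporter that takes up polyamines, was at 67.8 ± 19.7 and 106 ± 14.5 CPM, a log2 fold change of 0.64 (SE 0.22, unadjusted p = 0.0146, adjusted p = 0.739 in edgeR), and its groups overlapped because control 69, at 94.8 CPM, exceeded etanercept 50, at 89.9 CPM. Of all tested genes, 2.99% were higher by unadjusted p. The unadjusted p of Slc7a1 exceeded 0.05 in 6 of 21 alternatives, which were library size alone, the removal of the length trend (0.0896, the highest) and the fits without control 3 or 65 or etanercept 17 or 52. That of Atp13a3 exceeded it without control 65 (0.0552) or etanercept 52 (0.0518). Slc3a2, the gene of an amino acid transporter heavy chain, had a log2 fold change of -0.088 (SE 0.27).

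The remaining lists showed no gene past either threshold for treatment and none past the adjusted threshold along Sbp in the fit given above, although Azin2 and Dohh were near it. Of 7 other polyamine genes, 3 were tested (Azin2, Sat2 and Amd2). Azin2, coding for a second antizyme inhibitor, ranged from 2.77 CPM in control 69 to 24.1 CPM in control 1, with a slope along Sbp of -0.27 (SE 0.067, adjusted p = 0.0529 in edgeR). That slope passed in 6 alternatives, among them no filter beyond 1 count (0.0355), the robust fit (0.0455), a minimum of 10 counts in each mouse (0.0344) and protein-coding genes only (0.0472), and also without etanercept 17. Sat2, a relative of Sat1, had a log2 fold change of -0.36 (SE 0.45). Spermidine is also used to make hypusine, an amino acid found in the translation factor eIF5A. All 4 hypusine genes were tested, and Eif5a was at 772 ± 130 and 688 ± 41.5 CPM, a log2 fold change of -0.17 (SE 0.19), with a mean of 307 FPKM. Dohh, the gene of the hydroxylase that completes hypusine, had a log2 fold change of -0.48 (SE 0.37) and a slope of -0.17 (SE 0.042, adjusted p = 0.0574 in edgeR), which passed with upper-quartile factors (0.0478), with no filter beyond 1 count (0.0487) and with at least 10 counts in every mouse (0.0375). MYC is known to bind the E-boxes of the Odc1 gene, and of 6 genes of its network 5 were tested. Myc was at 30.9 ± 4.38 and 26.5 ± 6.65 CPM, a log2 fold change of -0.22 (SE 0.21), with a slope along Sbp of 0.0031 (SE 0.039). Its partner Max had a log2 fold change of 0.027 (SE 0.15). The medians of the log2 fold changes were -0.36 for the other polyamine genes, 0.20 for precursor supply, -0.011 for transport, -0.17 for hypusine and 0.027 for the MYC network.

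By pattern over the 8 mice, measured as Pearson's r of log2(CPM + 1), the tested genes most like Odc1 were Nucb2 (r = 0.995), Trpv6 (0.993) and Pycr1 (0.990). Those most like Amd1 were Eif4ebp1 (0.992), Fbxo9 (0.991) and Retsat (0.987). Among those most like Sat1 were Cnksr2 (0.970) and Nrn1 (0.969). Among the 10 genes themselves, the closest pairs were Amd1 with Srm (0.947) and Odc1 with Amd1 (0.931), and the most opposed were Oaz1 with Sat1 (-0.770) and Srm with Sms (-0.759). These values describe 8 points that share libraries and the wide spread of secretory content between mice.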

How the data were processed

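Prostates of 8 mice (4 control, 4 etanercept) were analysed, grouped by the sample labels. The authors deposited raw counts per gene from poly(A)-selected, paired reads of 150 nt. The submitters' processing notes name fastp, STAR 2.6.1d, featureCounts 1.5.0-p3, DESeq2 1.26.0 and the build mm10. The annotation and the strand setting of the counting are not given in the sources used here. Genes were named and located with GENCODE M21 (GRCm38, the same build as mm10). Of the identifiers, 37 were not in it (0.00429% of counts). FPKM were computed here from counts, TMM factors and exon length.

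Counts were tested with edgeR 4.0.16 (R 4.3.3): TMM factors, filterByExpr (minimum count 10), quasi-likelihood test, Benjamini-Hochberg adjustment over 15472 genes and a threshold of 0.05. SEs were taken from the fold change and its F statistic. DESeq2 1.42.0, other factors, filters, fits, an animal number block and leaving out each mouse were alternatives. The script was tested on simulated data whose dispersion was set below the common dispersion of these data (0.300). That test therefore does not show the power to detect changes here. The fit with log2(CPM + 1) of Sbp and the alternatives for it were added after the data were seen. The genes and lists were chosen with earlier results of these data known. Named genes were all 10 genes, and, in each related list, those under 0.05 by unadjusted p and the 2 others highest per length. For Odc1, Amd1 and Sat1 the rule took the 3 genes of highest r. Some genes that these rules select are not reported here. Upstream windows were found for 8 of the 10 genes. Total counts of 13760669 to 25178942 limit precision for low genes, and counts cannot show PCR duplicates. Each mouse is a sample, and the p-values test group differences or Sbp slopes against the variation between mice.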

Additional observations from a re-analysis of the deposited data

How the results depend on the processing

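The count of polyamine genes called for treatment was 0 under all 19 alternatives for the treatment fit, in the fit with Sbp and without control 69, etanercept 19 and etanercept 50. DESeq2 called 21 of all tested genes, and edgeR 0 in every alternative. No paired analysis was possible because no animal number occurs in both groups. The animal number block instead set mice with low numbers (control 1 and 3, etanercept 17 and 19) apart from those with high numbers (control 65 and 69, etanercept 50 and 52), and the labels do not call these batches. Polyamine genes under 0.05 by unadjusted p (1) became 2 with Sbp as a covariate and ranged from 0 (without etanercept 52) to 2 (without control 1) when 1 mouse was left out. Genes whose groups do not overlap (1) became 0 with upper-quartile factors or library size alone, 2 without control 69, etanercept 19 and etanercept 50, and ranged from 1 to 2 (without control 1 or etanercept 50) when 1 mouse was left out. Genes that changed with Sbp (2) became 4 with no filter beyond 1 count or with at least 10 counts in every mouse, and 1 without control 1 and etanercept 17. The calls along Sbp that other settings added (Srm, Sms, Azin2, Dohh) or removed (Amd1, Arg1, Arg2) are given beside those genes.

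Some values changed sign. The log2 fold change of Sat1 was 0.039 without the length trend, 0.022 with the animal number block and 0.061 with Sbp, and that of Amd1 was 0.066 with the block. Max was at -0.063 with library size alone. Without control 69, etanercept 19 and etanercept 50, Max was at -0.088, Smox at 0.029, Slc3a2 at 0.11 and Arg1 at -0.80, against 1.23 in all 8 mice. The slope of Myc along Sbp was -0.0033 with upper-quartile factors, -0.013 with library size alone and -0.0010 with at least 10 counts in every mouse. Without control 1 and etanercept 17, the slopes of Oaz1, Smox and Sat2 were -0.035, 0.0057 and 0.037. Leaving out 1 mouse gave log2 fold changes of -0.11 to 1.07 for Odc1, -0.37 to 0.60 for Amd1, -0.37 to 0.19 for Srm, -0.11 to 0.16 for Sat1, -0.22 to 0.087 for Smox, -0.46 to 0.035 for Paox, -0.18 to 0.83 for Azin2, -0.24 to 0.065 for Slc3a2, -0.028 to 0.12 for Max and -0.018 to 1.03 for Arg2. Slopes ranged from -0.021 to 0.064 for Oaz1, -0.11 to 0.0064 for Sat1, -0.055 to 0.014 for Smox, -0.15 to 0.084 for Sat2, -0.036 to 0.052 for Myc and -0.058 to 0.0027 for Max. The causes were not tested. Among the 10 polyamine genes, the lowest counts in a mouse were 81 for Paox and 141 for Smox.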
